A study of Mus musculus with 12 samples.

Results

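The Iroquois homeobox family of the mouse has 6 genes, Irx1 to Irx6, and was followed here in mouse limbs at stage E12.5, in the autopod, the plate that forms the hand or foot. Members were all probe sets annotated to exactly one of the 6 symbols on either design of the Affymetrix MOE430 GeneChip set. There were 6 such probe sets, 1 per gene, among 45265 in all. All 6 were on the A design, which holds 22690 probe sets, and 0 of the 22575 on the B design carried an Iroquois symbol. Total RNA came from 3 forelimb samples, numbered 11, 13 and 25 in their titles, and 3 hindlimb samples, numbered 12, 14 and 26. All 6 were wild type, and the labels name no treatment, strain or sex. The A array of forelimb 11 is labelled only as autopod, and its limb was taken from the letter F in the title. The labels do not state whether a sample was 1 embryo or a pool, or that samples were independent, and all p-values rest on the spread among these samples alone.

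Iroquois proteins are homeodomain transcription factors of the TALE class, named for an extended loop between helices of the homeodomain. In mammals the genes lie in a pair of clusters, IrxA with Irx1, Irx2 and Irx4 and IrxB with Irx3, Irx5 and Irx6, whose members often share domains of expression. Irx3 and Irx5 are known from the early limb bud, where they are needed together for the proximal and anterior skeleton of the hindlimb. Irx1 and Irx2 are known from the forming digits. Irx4 is best known from the ventricles of the heart and Irx6 from the retina.

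The labelled limbs could be checked against the factors that mark limb type. Tbx5, the T-box factor of the forelimb, gave 1145 to 1381 in forelimb against 29.3 to 174 in hindlimb on its brighter probe set, and forelimb 11 lay with the forelimb at 1145. Pitx1, the homeobox factor of the hindlimb, gave 478 to 678 in hindlimb against 99.0 to 160 in forelimb. The autopod mesenchyme markers Prrx1, Twist1, Msx1, Hoxa13, Hoxd13 and Tfap2b were all above the signal filter, and 0 of the 6 passed the limma test between the limbs on the A array, also at an unadjusted p under 0.05.

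The start regions of the members are shown first, because they are the only family sequences used here and because the genes of a cluster are compared below. RefSeq promoter windows (GRCm38.p6) were matched by symbol for 3 members, Irx2 and Irx4 of IrxA and Irx3 of IrxB. The 250 bases before the start of transcription are printed 5′ to 3′ on the strand of the gene for 1 member of each cluster, with every CG dinucleotide in capitals. The Irx3 window lies at chr8:91801655-91801904 on the minus strand and the Irx2 window at chr13:72628570-72628819 on the plus strand.
Irx3: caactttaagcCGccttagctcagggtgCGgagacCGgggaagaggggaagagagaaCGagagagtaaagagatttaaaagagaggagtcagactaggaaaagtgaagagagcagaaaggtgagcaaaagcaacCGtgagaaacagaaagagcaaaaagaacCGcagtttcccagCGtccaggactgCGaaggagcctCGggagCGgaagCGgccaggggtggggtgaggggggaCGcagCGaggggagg
Irx2: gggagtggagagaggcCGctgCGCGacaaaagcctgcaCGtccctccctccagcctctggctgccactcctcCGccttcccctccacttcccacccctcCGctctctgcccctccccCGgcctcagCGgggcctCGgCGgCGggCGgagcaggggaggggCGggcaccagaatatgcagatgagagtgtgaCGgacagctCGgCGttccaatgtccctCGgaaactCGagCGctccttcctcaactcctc

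The windows differed in base composition. That of Irx3 was 56.0% G or C with 13 CG dinucleotides, that of Irx2 68.4% with 19, and that of Irx4, at chr13:73260247-73260496 on the plus strand, 68.8% with 22, against medians of 52.4% and 6 over 32851 windows of the same length. The Irx3 strand was rich in purines. A and G made up 73.6% of it, a share reached by 0.23% of all windows, whereas they made up 44.0% of the Irx2 window and 51.2% of the Irx4 window. Both strands were searched for 4 motifs, none of which contains another. The GC box GGGCGG was found at 2 places in the Irx2 window and at 2 in the Irx4 window, and 32.7% of all windows hold it. The letters CCAAT were found once, in the Irx2 window, and are in 33.8% of all windows. TATAAA, in 12.4% of windows, and ACANNTGT, a palindrome that Iroquois proteins bind, in 6.3%, were not among these letters in any of the 3 windows.

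Levels are given as MAS5.0 signals, scaled on every array to a trimmed mean of 500. The brightness of a probe set depends on its probes, so levels of different genes were not ordered. A probe set was tested between the limbs where at least 3 of the 6 arrays had a signal of 100 or more. This held for 5 of the 6 members. Irx1, Irx2, Irx3 and Irx5 were at or above 100 on all 6 arrays, Irx6 on 3 and Irx4 on 0. Differences are log2 hindlimb minus forelimb of signal + 32, with n = 3 samples per limb, and the added 32 understates changes of dim probe sets. The fit gives a 95% interval for each gene by itself, not adjusted for the number of genes.

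All 5 tested members had a difference below 0, and the IrxB genes Irx3 and Irx5 had the largest, with mean hindlimb signals of 67.7% and 68.1% of those in forelimb. None passed the test over all 15338 probe sets tested on the array (0 of 5 at a limma adjusted p of 0.05, with 0.0326% of all tested probe sets past it). At an unadjusted limma p under 0.05, 2 of the 5, Irx3 and Irx5, were lower in hindlimb, where 3.69% of all tested probe sets were. The same 2 had limbs that did not overlap with forelimb above, as had 6.1% of all tested probe sets. The median difference of the 5 was -0.302, beside -0.009 over all tested probe sets, of which 52.2% lay below 0. The count is small, and the members were chosen with results of these arrays known, so no test was made over the family.

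**Figure D1:**
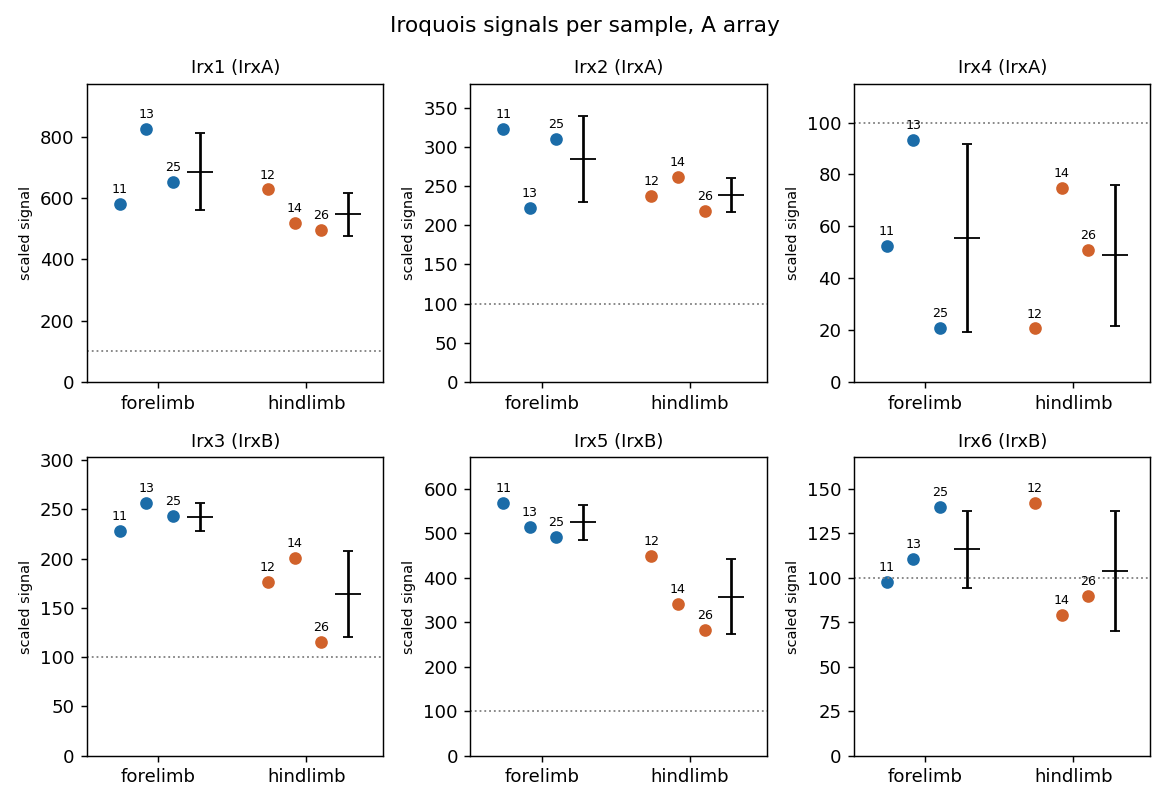
Scaled MAS5.0 signal (vertical axis, linear from 0, a scale of its own in each panel) of each Iroquois probe set in 3 forelimb samples (blue) and 3 hindlimb samples (orange) on the A array. Points carry the sample number, black marks show mean and SD, and the dotted line is the signal filter of 100; the limbs are apart for Irx3 and Irx5 and overlap for the other 4 genes.

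In the IrxB cluster, Irx5 (probe set 1421072_at), known from the retina and from the electrical gradient of the heart as well as from the limb bud, had signals of 567.7, 514.6 and 490.6 in forelimb 11, 13 and 25. In hindlimb 12, 14 and 26 they were 448.4, 341.0 and 281.6. Every forelimb sample lay above every hindlimb sample, with the narrowest gap between forelimb 25 and hindlimb 12. The means were 524 ± 39.5 (SD, n = 3) and 357 ± 84.5. The difference was -0.54 ± 0.17 (SE; 95% interval -0.91 to -0.17; limma adjusted p = 0.633). As a ratio of hindlimb to forelimb this difference was 0.69 (0.534 to 0.891). That ratio is for signals with the constant of the fit added, which understates the change. The mean hindlimb signal itself was 68.1% of that in forelimb. An exact two-sided permutation test gave p = 0.1, the smallest that 3 against 3 samples allow.

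Irx3 (probe set 1418517_at), known also from the conduction system of the heart and from the neural tube, had signals of 228.2, 256.5 and 242.9 in forelimb 11, 13 and 25. They were 176.2, 200.9 and 115.5 in hindlimb 12, 14 and 26. Again the limbs did not overlap, and hindlimb 26 was the lowest for both genes. The means were 243 ± 14.1 and 164 ± 43.9 (SD, n = 3). The Irx3 difference was -0.51 ± 0.19 (SE; 95% interval -0.92 to -0.09; limma adjusted p = 0.749; exact permutation p = 0.1). As a ratio of hindlimb to forelimb this difference was 0.703 (0.527 to 0.937). That ratio is for signals with the constant of the fit added, which understates the change. The mean hindlimb signal itself was 67.7% of that in forelimb. Without hindlimb 26 the difference shrank to -0.32 (limma adjusted p = 0.937), and that of Irx5 to -0.39 (limma adjusted p = 0.882).

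The hindlimb samples spread more than the forelimb samples for both genes. The coefficient of variation of the signal was 5.83% in forelimb and 26.8% in hindlimb for Irx3, and 7.53% and 23.7% for Irx5. Irx1 and Irx2 had it the other way round, with 18.4% and 19.3% in forelimb and 12.9% and 9.06% in hindlimb. Irx6, near the filter, had 18.6% in forelimb and 32.4% in hindlimb, and Irx4, below it, 65.6% and 55.7%. These rest on 3 samples each and were not tested.

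Irx6 (probe set 1427383_at), the third gene of IrxB, known from bipolar cells of the retina, had 97.7, 110.8 and 139.8 in forelimb 11, 13 and 25. It had 142.2, 79.4 and 90.0 in hindlimb 12, 14 and 26. The highest signal of all 6 was that of hindlimb 12, and the limbs overlapped. The difference was -0.14 ± 0.22 (95% interval -0.63 to 0.35; limma adjusted p = 0.993), and its interval holds both no change and the estimates of Irx3 and Irx5. It became -0.01 without hindlimb 14 and -0.34 without hindlimb 12. With signals so near the filter, Irx6 passed it in 3 of the 6 selections of 5 arrays.

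In the IrxA cluster, Irx1 (probe set 1451983_at), known from the digits and the lung, had signals of 580.5, 825.9 and 653.0 in forelimb 11, 13 and 25. They were 628.8, 518.3 and 496.6 in hindlimb 12, 14 and 26. Hindlimb 12 lay above forelimb 11, so that the limbs overlapped by 1 sample. The means were 686 ± 126 and 548 ± 70.9 (SD, n = 3), and the difference was -0.30 ± 0.16 (95% interval -0.65 to 0.05; limma adjusted p = 0.94). Without forelimb 13, the highest sample, it was -0.17.

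Irx2 (probe set 1426298_at), the cluster partner of Irx1 in the digits, had 322.8, 221.7 and 310.2 in forelimb 11, 13 and 25. It had 237.6, 261.6 and 218.4 in hindlimb 12, 14 and 26. Forelimb 13, highest for Irx1, was lowest of the forelimb for Irx2, below hindlimb 12 and 14. The difference was -0.21 ± 0.17 (95% interval -0.58 to 0.16; limma adjusted p = 0.964). It was -0.36 without forelimb 13 and -0.12 without forelimb 11.

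Irx4 (probe set 1419539_at), the ventricular gene of the family, was dim on every array. Its signals were 52.4, 93.3 and 20.7 in forelimb 11, 13 and 25 and 20.6, 74.7 and 51.0 in hindlimb 12, 14 and 26. Both limbs spanned nearly the same range, and no detection call was used here to say whether the transcript was present. In the fit without the filter its difference was -0.09 ± 0.35 (95% interval -0.90 to 0.73), too wide to tell a change in either direction from none.

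**Figure D2:**
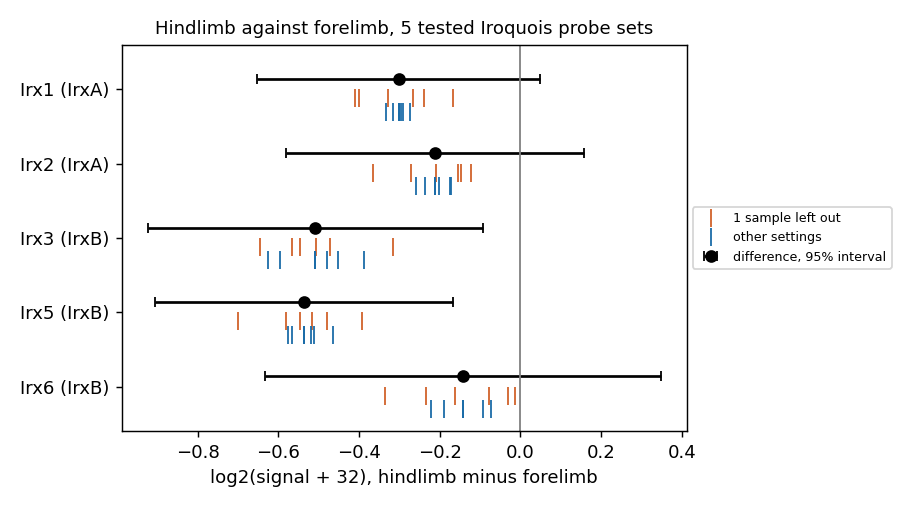
Hindlimb minus forelimb in units of log2(signal + 32) (horizontal axis) for the 5 tested Iroquois probe sets, with black points and 95% intervals from limma, orange ticks for the 6 fits with 1 sample left out and blue ticks for the other settings. All ticks lie below 0; the intervals of Irx3 and Irx5 end below 0 and those of Irx1, Irx2 and Irx6 reach above it.

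The shape over the 6 samples was compared by the root mean square difference between log2 values, each gene centred on its own mean, so that 0 means the same profile. Irx3 and Irx5 were the closest pair of members at 0.185. Of 15337 other probe sets, Irx5 stood at place 169 from Irx3 (the nearest 1.1%) and Irx3 at place 178 from Irx5 (1.16%). Irx1 came next, at 0.23 from Irx3 and 0.231 from Irx5, which is place 606 and place 572. The IrxA pair was less alike. Irx1 and Irx2 were 0.318 apart, farther than the median probe set was from either (0.29 and 0.257). Irx6 was 0.342 from Irx3 and 0.287 from Irx5, and nearest to Irx1 at 0.219. Profiles share the arrays and, for Irx3 and Irx5, the gap between limbs, and these places are descriptions with no test.

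**Figure D3:**
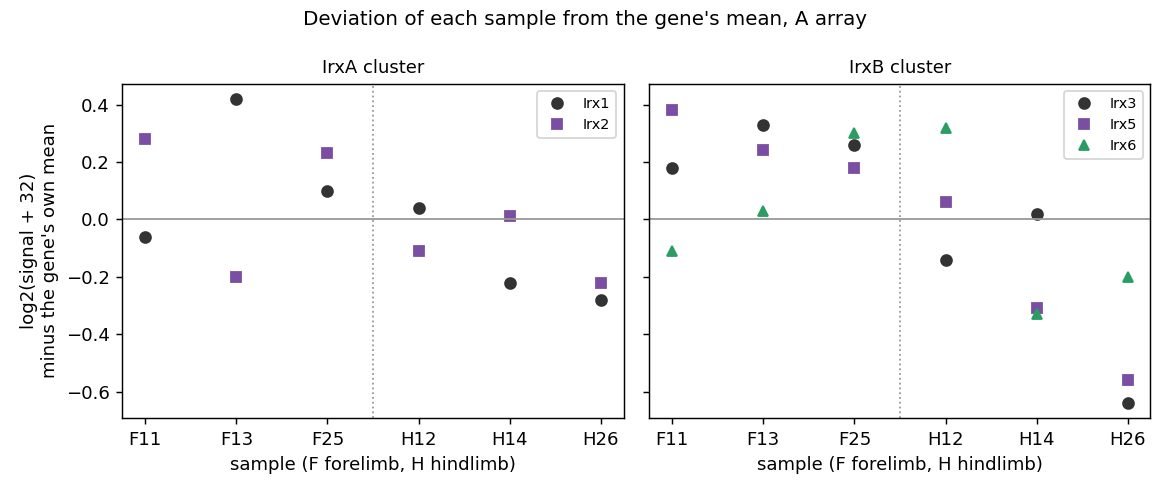
Deviation of each sample from the mean of the gene over the 6 samples, on the log2(signal + 32) scale, for the tested genes of IrxA (left) and IrxB (right); the dotted line parts forelimb (F) from hindlimb (H). Irx3 and Irx5 are highest in F11, F13 and F25 and lowest in H26 (-0.64 and -0.56), while Irx1 and Irx2 part in F13 (0.42 and -0.20).

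Genes with the profiles most like each member were named by the same measure, with 3 per member over the 6 samples of the A array. For Irx3 these were Tfap2a (0.054), the transcription factor AP-2 alpha, Dnaaf1 (0.094), a factor for the assembly of ciliary dynein, and Antxr1 (0.098), a cell surface receptor. The Tfap2a probe set read 668 to 688 in forelimb and, in hindlimb, 343 to 549. For Irx5 they were Csgalnact1 (0.063), an enzyme of chondroitin sulfate synthesis, Olfml2b (0.075) and Ifngr1 (0.085), a chain of the interferon gamma receptor. Csgalnact1 read 241 to 289 in forelimb and, in hindlimb, 131 to 194. For Irx1 they were Ammecr1l (0.059), Ehbp1 (0.061) and another probe set of Tfap2a (0.068). For Irx2 they were H2aw (0.023), Igf2 (0.036) and Tcte1 (0.045), and for Irx6 Kitl (0.033), Tmem158 (0.054) and Snrnp27 (0.056). With 6 samples and 15337 candidates, close profiles are found for any gene.

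Neighbours of the clusters were read from the order of protein-coding genes in RefSeq, with 3 on each side and none between members. Next to Irx3 lies Fto, an RNA demethylase gene whose introns are known to hold regulatory elements of Irx3. On its brighter probe set Fto had signals of 770.5, 802.6 and 858.9 in forelimb 11, 13 and 25 and 551.7, 580.0 and 888.3 in hindlimb 12, 14 and 26. The limbs overlapped because of hindlimb 26, the sample in which Irx3 and Irx5 were lowest, and the difference was -0.29 ± 0.17 (limma adjusted p = 0.952). Beyond Irx6 lies Mmp2, a gelatinase, with forelimb signals of 2756 to 3136 and hindlimb signals of 2105 to 2553. Its probe sets gave -0.27 ± 0.12 (limma adjusted p = 0.868) and -0.37 ± 0.13 (adjusted p = 0.682), with limbs apart on both. Aktip, beyond Fto, had 0.14 ± 0.13, and Lpcat2, beyond Mmp2, had 0.07 ± 0.25 (B array). Beside IrxA, Ice1 had 0.06 ± 0.13, Mrpl36 -0.09 ± 0.17 and Lpcat1 -0.03 ± 0.10, all on the A array. Adamts16 (-0.32 ± 0.47) and a further probe set of Lpcat1 (-0.78 ± 0.45) were measured on the B array. For Adamts16, hindlimb 14 read 191.4 beside 977.0 and 959.9 in hindlimb 12 and 26. For that Lpcat1 probe set, forelimb 11 read 373.5 beside 111.4 and 121.4 in forelimb 13 and 25. Other tested probe sets of the A array gave -0.09 for Fto, -0.08 for Ice1, and -0.03 and 0.11 for Lpcat1. Those of the B array gave 0.02 for Adamts16 and -0.21 for Lpcat2. Capns2 was below the filter, and Gm47655, Ndufs6 and Rpgrip1l had no probe set under their own symbol and were not analysed here. Over both loci 6 neighbours were tested on the A array (4 below 0, median -0.06) and 3 on the B array. On values as deposited, 1 neighbour was tested on the B array. The A median was 0.04 without hindlimb 14 (2 of 6 below 0) and -0.12 without hindlimb 12. None passed the threshold in limma, which 0.0117% of the probe sets tested on the B array did. At an unadjusted p under 0.05, which 5.54% of all tested probe sets reached on either array, there was 1 neighbour on the A array, Mmp2, and 0 on the B array.

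**Figure D4:**
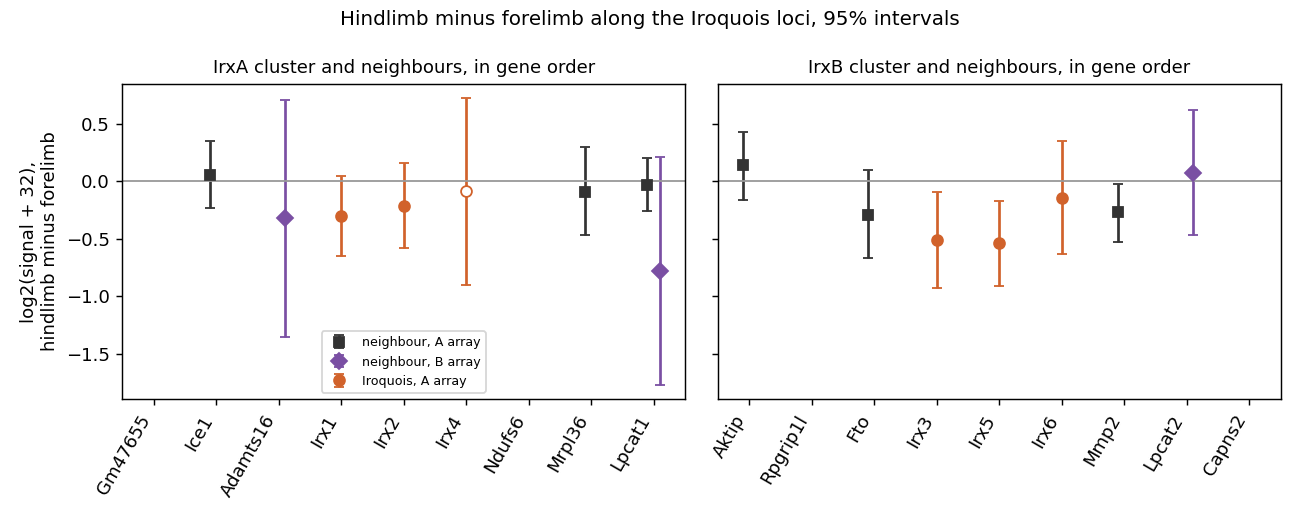
Hindlimb minus forelimb in units of log2(signal + 32) with 95% limma intervals, for the members (orange; the open circle is Irx4, from the fit without the filter) and the brightest tested probe set of each neighbour (dark squares A array, purple diamonds B array), in gene order without distances. Genes with no mark had no tested probe set; on the IrxB side the estimates of Fto (-0.29) and Mmp2 (-0.27) lie between those of Irx5 (-0.54) and 0, and Aktip (0.14) lies above 0.

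Other genes around the family were taken from 4 lists and described by the brightest tested probe set of each gene. Of the TALE relatives of the Iroquois genes the A array tested 6 (4 below 0, median -0.06) and the B array 7 (5 below 0, median -0.11), and 0 passed the limma threshold or an unadjusted p under 0.05 on that probe set. These medians did not keep their sign: the A median was 0.03 without hindlimb 12 (2 of 6 below 0) and the B median 0.02 without hindlimb 26 (3 of 7 below 0). Among all probe sets tested on either array, 52.2% lay below 0 and 5.54% had an unadjusted p under 0.05. Limbs apart with forelimb above were found for 6.1% on the A array. Meis2, a cofactor of Hox proteins, had -0.29 ± 0.15 on A and -0.31 ± 0.16 on its brightest probe set of B, with forelimb above in both. Its other B probe sets disagreed, at 0.43 ± 0.19 with hindlimb above and -0.28 ± 0.30 with overlapping limbs. Pknox1 (A array) had -0.12 and Tgif2 (B array) 0.41. Mkx, known from tendon, had -0.11 (B array).

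Regulators of the anterior-posterior axis of the limb include the hedgehog pathway, which is known to restrict Irx3 and Irx5 in the limb bud, and Sall4, known to act upstream of them in the hindlimb. The A array tested 15 of these genes (9 below 0, median -0.06, 3 at an unadjusted p under 0.05). The B array tested 9 (4 below 0, median 0.33, likewise 3 at that p). Over all probe sets tested on either array, 5.54% reached that p and 52.2% lay below 0. Without hindlimb 12 the A median was 0.07 (6 of 15 below 0), and without hindlimb 14 it was -0.14. The B median was 0.11 without forelimb 11 and, on values as deposited, -0.11 over the 5 genes then tested. The 1 call was Hhip, a hedgehog-binding protein, at -1.73 ± 0.19 on the B array (limma adjusted p = 0.0214), and Hhip had -1.34 on the A array (adjusted p = 0.104). The B array call was lost without the filter (limma adjusted p = 0.0819), without the trend (adjusted p = 0.105) and without any 1 sample other than hindlimb 12 (adjusted p = 0.0749 to 0.189), with differences of -1.58 to -1.84 in these fits. Gli2, a hedgehog effector, had -0.42 ± 0.15 (adjusted p = 0.727). Sall4 had signals of 104.5, 101.7 and 135.4 in forelimb 11, 13 and 25 and 130.2, 216.2 and 161.1 in hindlimb 12, 14 and 26. Its difference was 0.45 ± 0.20 with overlapping limbs (adjusted p = 0.898), opposite in sign to those of Irx3 and Irx5; Sall4 and Mkx were named after their values were seen.

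Genes of the digits and joints, the setting in which Irx1 and Irx2 are known, were below 0 for 18 of 18 tested on the A array, with a median of -0.285. A difference below 0 was found for 52.2% of all probe sets tested. The limbs were apart for 7 of the 18 with forelimb above, against 6.1% of all. None passed the limma threshold, and 8 had an unadjusted p under 0.05, against 5.54% of all. Osr1, a zinc finger factor, had -0.84 ± 0.18 (limma adjusted p = 0.303) and Acan, the core protein of aggrecan, -0.72 ± 0.16 (adjusted p = 0.376). The count was 17 with array weights or without hindlimb 14 and 16 without hindlimb 12. On the B array 5 of 7 were below 0 (median -0.197), with Erg at -0.37 and Wnt4 at -0.45. The B median ranged from -0.048 without hindlimb 26 to -0.281 without hindlimb 14. On values as deposited, 3 genes were tested on B, all below 0. Earlier results of these arrays had shown lower cartilage and joint genes, so these counts are no independent evidence.

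Of genes reported as partners or targets of Iroquois proteins, mostly in heart and face, the A array tested 7 (5 below 0, median -0.08) and the B array 2 (both below 0). The A median lay between -0.02 with quantile normalization and -0.22 with array weights, and on B 1 of 2 was below 0 without hindlimb 12. None passed in limma, and at an unadjusted p under 0.05 the A array gave 3 and the B array 0. Of all probe sets tested on either array, 5.54% reached that p and 52.2% lay below 0. Cxcl12, a chemokine, read 580.0 to 656.5 in the forelimb and 391.6 to 452.7 in the hindlimb, a difference of -0.52 ± 0.13 (limma adjusted p = 0.456). Its other probe sets gave -0.15 on A and -0.17 on B, with overlapping limbs. Gja1, a gap junction protein, had 0.27 ± 0.10 on its brightest probe set and -0.13 to 0.18 on its other 5. Trps1, a GATA-type factor, had -0.38 on A and -0.24 on its brightest probe set of B.

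Markers of the cell types in the autopod and signs of RNA quality moved with the limbs to differing degrees on the A array. The summed signal of the 5 cartilage markers was 8578 to 10011 in forelimb against 7262 to 9556 in hindlimb. Col9a1, a collagen of cartilage whose signal was the largest part of these sums, had 0.19. Col2a1 had -0.61, Acan -0.72 and Matn4 -0.79 with limbs apart, and Sox9 had -0.31 (median of the 5 markers -0.61). Sox9, Col2a1 and Acan are the same probe sets as among the digit and joint genes above, not a separate observation. The summed signal of the 5 ectoderm markers was 3391 to 4449 and 2779 to 3309 (3 of 5 below 0, median -0.01). Krt14 had -0.83 and Krt5 -0.40, beside Epcam at -0.01, Cdh1 at 0.01 and Trp63 at 0.09. Other probe sets of Krt14 gave -0.66 and 0.08. That of the erythroid markers was 27418 to 30039 and 30930 to 33844 (3 of 3 tested above 0). The endothelial sums were 1390 to 1418 and 1219 to 1392 (3 of 4 below 0), and those of the 3 tested muscle markers, Des, Myod1 and Myog, 523 to 598 and 429 to 547 (3 of 3 below 0), while Myf5 and Pax3 were below the filter. The mesenchyme sums were 10102 to 10937 and 8674 to 10764 (6 of 6 below 0). Without detection calls, these signals do not show which cell types were present. The Gapdh probe sets at the 3′ and 5′ ends of the transcript had log2 ratios (3′ over 5′) between -0.239 and -0.078 in forelimb and between -0.299 and -0.263 in hindlimb (two-sided exact permutation p = 0.1, the smallest that 3 against 3 allows). The same ratio for beta-actin overlapped, at 0.118 to 0.261 and 0.222 to 0.27 (exact permutation p = 0.3), and on the B array both controls overlapped (exact permutation p = 0.8 and 0.9). The part of cell composition or RNA quality in the Iroquois differences was not tested, and in bulk tissue fewer cells of a type and less RNA per cell cannot be told apart.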

How the data were processed

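RNA of 3 forelimb and 3 hindlimb autopod samples was hybridised to the A and B designs, 12 arrays. Per the labels, the authors deposited linear intensities, the MAS5.0 signal of each probe set (not repeated in the label of forelimb 11, A array). Their 2% trimmed mean was 350.1 for all A arrays and 70.0 for all B arrays. Detection calls were not used here. Each array was scaled to 500, by factors of 1.43 (A) and 7.14 (B). Symbols came from the platform annotation, updated through a RefSeq gene table of GRCm38.p6 (found for 20364 of 20393 single-gene probe sets of design A and 14499 of 14674 of design B).

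Limbs were compared on log2(signal + 32) with limma 3.58.1 (R 4.3.3), separately for the designs, with a variance trend in eBayes and two-sided p-values adjusted by Benjamini-Hochberg over all tested probe sets. Without the 64 controls per design, 15338 and 17145 probe sets were tested. The fit was also run on data simulated from its own variance model, which meet its assumptions by construction. The outcome is not given here. Exact permutation tests used scipy 1.17.1 in Python 3.11.15; figures used matplotlib 3.10.9. The number of arrays limits the precision (median SE 0.16 for design A and 0.23 for design B). All members and all locus neighbours are named; from each list and design come up to 4 genes that passed or, with none, the 2 with the lowest p. Alternatives were other pseudocounts, filters, normalization, variance priors, weights, a block and leaving out samples. Members and lists were chosen with earlier results of these data known.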

Additional observations from a re-analysis of the deposited data

How the results depend on the processing

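The 5 tested Iroquois probe sets had a difference below 0 in every setting that tested them, and 0 passed an adjusted p of 0.05 in limma in any of them, the lowest being 0.274 for Irx5 without hindlimb 12. At an unadjusted limma p under 0.05, Irx5 passed in 21 of 21 other settings, Irx3 in 17 of 21 and Irx1 in 5 of 21. All settings draw on the same 6 arrays and are not independent. The filter, trend and block settings keep the difference of the main fit by construction and change only the p-values. In 6 of the 21, the fits without 1 sample were repeated with the filter re-applied. The difference of a probe set does not depend on which others pass the filter. The repeats could therefore change only the p-values and whether a member was tested, and are no check on the differences. Irx3 ranged from -0.32 without hindlimb 26 to -0.65 without hindlimb 14. Filtering at 200 or on values as deposited left 4 members tested. No result for the family on the B array could be had, as 0 members lie there. Over all probe sets, the 5 calls of the A array became 1 without the filter, 14 with array weights and 8 with a replicate block of consecutive sample numbers, which the labels do not state to be pairs; the 2 calls of the B array became 1, 3 and 4, and 0 without the trend. Leaving out 1 sample gave 3 to 9 calls on the A array and 1 to 4 on the B array, and 0 to 8 and 1 to 4 with the filter re-applied, a setting chosen after seeing the data. The causes of these shifts were not tested.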
